A study of Caenorhabditis elegans with 2 samples.

Results

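Single-gene promoter peaks on the autosome arms are PHA-4 binding summits that can be tied to 1 protein-coding gene by position and that lie away from the chromosome middles. Each of the 5 autosomes was divided into 3 segments of equal length, and the outer 2 are called arms and the middle 1 the centre. A summit was a member if exactly 1 protein-coding gene had a 5' end around it, counted from 1000 bp before to 200 bp past that end, and the centre summits chosen the same way are the comparison. Of 7847 peaks that the authors kept as optimal, 1385 were arm members and 1255 were centre members. The study is a ChIP-seq experiment, in which DNA bound by a protein is recovered with an antibody and sequenced. Both biological replicates were whole L3 larvae of strain OP37, of mixed sex and of unknown age, carrying unc-119(ed3) on chromosome III and the insertion wgIs37, which targets pha-4. There is 1 group, with no untagged strain, other stage or other genotype among the samples, and no expression was measured. The label for the antibody reads pha-4 and the description of the experiment reads eGFP-pha-4.

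PHA-4 is the FoxA factor of Caenorhabditis elegans. Factors of this class hold DNA through a forkhead domain and can enter closed chromatin, and PHA-4 specifies the pharynx and also acts in the gut. In this species the chromosome centres are richer in conserved housekeeping genes and recombine little, whereas the arms recombine often and are rich in repeats and in large gene families of recent expansion, such as chemoreceptors, C-type lectins and F-box genes. Because whole animals were used, binding in a few cells and weak binding in many cells cannot be told apart.

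The DNA under the highest arm peaks is shown as an example of the sequence searched in the results that follow. Each window takes 50 bp on each side of the summit, for the highest 8 arm members on II, III, IV and V that overlap no annotated exon, 5' to 3' on the strand of the gene, from the RefSeq sequence of build WBcel235 (ce11). Capitals mark the FoxA words (TGTTTAC or TGTTTGC or TATTTAC or TATTTGC) and the GA repeat (GAGAGA), on either strand. The windows are chrII:10563525-10563625 on the minus strand for cdc-48.1, chrV:20756777-20756877 on the plus strand for pha-4, chrIII:3867525-3867625 on the plus strand for rpl-3 and chrIV:3294705-3294805 on the plus strand for W08E12.7. The others are chrII:4299364-4299464 on the plus strand for sco-1, chrIV:13865286-13865386 on the minus strand for vamp-8, chrIII:12905152-12905252 on the plus strand for cox-5A and chrIV:17249855-17249955 on the plus strand for eelo-2.
cdc-48.1: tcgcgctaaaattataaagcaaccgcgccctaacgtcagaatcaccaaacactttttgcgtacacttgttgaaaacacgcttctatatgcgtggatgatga
pha-4: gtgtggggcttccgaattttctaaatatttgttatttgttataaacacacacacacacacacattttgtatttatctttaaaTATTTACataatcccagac
rpl-3: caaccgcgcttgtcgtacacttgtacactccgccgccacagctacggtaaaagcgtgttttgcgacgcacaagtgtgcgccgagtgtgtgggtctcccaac
W08E12.7: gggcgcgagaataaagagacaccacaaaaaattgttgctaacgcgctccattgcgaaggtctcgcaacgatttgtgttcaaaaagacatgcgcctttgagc
sco-1: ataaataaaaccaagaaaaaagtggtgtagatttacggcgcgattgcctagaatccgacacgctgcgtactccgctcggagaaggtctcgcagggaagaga
vamp-8: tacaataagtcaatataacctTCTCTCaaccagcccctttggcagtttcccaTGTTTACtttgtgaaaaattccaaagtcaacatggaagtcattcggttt
cox-5A: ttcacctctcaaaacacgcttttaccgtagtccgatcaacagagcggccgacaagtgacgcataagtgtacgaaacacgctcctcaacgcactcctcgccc
eelo-2: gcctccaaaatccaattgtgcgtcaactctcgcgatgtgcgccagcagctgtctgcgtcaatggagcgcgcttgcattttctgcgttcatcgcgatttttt
Of these 8 windows, 2 held a marked word: the pha-4 window a FoxA word, and the vamp-8 window a FoxA word and a GA repeat.

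The 4 highest centre members that met the same conditions are shown for comparison, again with capitals for the FoxA words and the GA repeat. They are chrIII:7854628-7854728 for rpl-35, chrIII:8043930-8044030 for K12H4.5, chrIV:8893902-8894002 for rad-54.L2 and chrII:7152107-7152207 for fust-1, all on the plus strand of WBcel235.
rpl-35: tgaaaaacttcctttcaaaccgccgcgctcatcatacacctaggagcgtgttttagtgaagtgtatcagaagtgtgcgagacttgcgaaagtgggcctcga
K12H4.5: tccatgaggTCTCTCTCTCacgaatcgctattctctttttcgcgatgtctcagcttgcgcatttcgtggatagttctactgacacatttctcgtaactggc
rad-54.L2: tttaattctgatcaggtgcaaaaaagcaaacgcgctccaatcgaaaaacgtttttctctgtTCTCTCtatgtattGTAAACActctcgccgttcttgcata
fust-1: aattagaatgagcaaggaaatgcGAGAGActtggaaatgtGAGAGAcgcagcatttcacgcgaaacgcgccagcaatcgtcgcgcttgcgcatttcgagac
A marked word was present in 3 of these 4 windows, a GA repeat in each of the 3 and a FoxA word in 1. The printed windows are few and do not stand for members at large. Over all members, the GA repeat was found at 26.4% of arm and 21.4% of centre summits. FoxA words were found at 24.8% of arm and 27.6% of centre summits. A window without a marked word lacks these letters only.

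Arm genes carried a single-gene promoter peak less often than centre genes. Of 10672 protein-coding genes whose 5' end lies on an arm, 1258 had a member (11.8%, 95% Wilson interval 11.2 to 12.4%), and of 6570 centre genes 1080 had one (16.4%, 15.6 to 17.4%). The background is therefore 11.8% on the arms and 16.4% in the centres. A logistic fit over all these genes, with chromosome as a covariate and errors robust to 100 kb bins, gave an odds ratio of 0.687 (95% interval 0.615 to 0.767, n = 10672 arm and 6570 centre genes, Benjamini-Hochberg adjusted p = 1.27e-10 over 15 arm-centre tests). The share was below that of the chromosome's own centre in 9 of 10 arms. The exception was the right arm of III, with 18% on the arm and 17.6% in the centre. The lowest shares were 7.31% on the right arm of V and 7.48% on the left arm of II.

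The difference was also seen per length of sequence. Arms held 12.6 Mb of sequence that lies in the promoter window of exactly 1 gene, and centres 7.33 Mb, out of 55.0 and 27.5 Mb in all. Members fell at 110.2 per Mb of this sequence on the arms and at 171.1 per Mb in the centres, a rate ratio of 0.647 (0.589 to 0.709, adjusted p = 3.65e-19, n = 1385 arm and 1255 centre members, Poisson fit over 100 kb bins). All 10 arms were below the centre of their own chromosome, from 72.8 per Mb on the left arm of II to 169.5 on the right arm of III, against 145.6 to 206.2 in the 5 centres. The arms were not even among themselves: on chromosome II the right arm reached 157.0 per Mb, and on chromosome I the left arm 137.3 and the right arm 98.9. Within the arms, the share of genes with a member was 12% in the part nearer the chromosome end and 11.6% in the part nearer the centre.

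**Figure D1:**
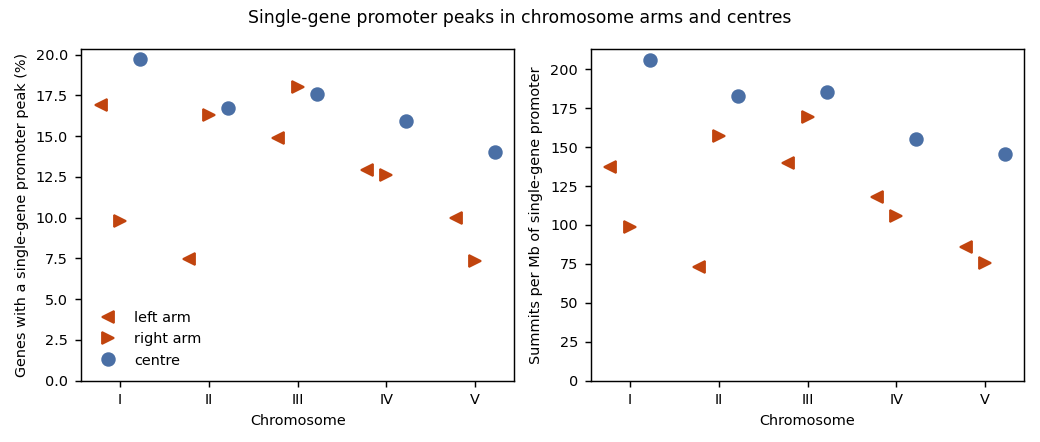
Share of protein-coding genes with a single-gene promoter peak (left, in percent) and member summits per Mb of single-gene promoter sequence (right), for the left arm, the right arm and the centre of each autosome. Each point is 1 segment of the optimal list; per Mb, all 10 arms lie below their own centre, and the right arm of III is the 1 arm whose share of genes exceeds that of its centre.

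Arm members stood farther apart. The median distance to the nearest other optimal summit of any class was 2973 bp on the arms and 1915 bp in the centres, a ratio of geometric means of 1.57 (1.40 to 1.75, adjusted p = 1.23e-14, n = 1385 arm and 1255 centre members). Another summit lay within 1 kb of 240 arm members (17.3%) and of 349 centre members (27.8%), and none lay within 10 kb of 265 arm members (19.1%) and of 112 centre members (8.92%). Among genes with a member, 2 or more members were found at 8.74% on the arms and at 14.0% in the centres (odds ratio 0.591, 0.453 to 0.771, adjusted p = 3.21e-04, n = 1258 arm and 1080 centre genes). This call was lost with a promoter window of 500 bp before to 100 bp past the 5' end (odds ratio 0.684, adjusted p = 0.152, n = 2159 genes) and in the upper 50% of the list by signal (0.620, adjusted p = 0.123). The spacing, density and share of genes with a member all count the same summits and are not separate lines of evidence.

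Each annotated 5' end of a gene has its own window, so a gene with several such ends can gather more members. With 1 5' end per gene, 2 or more members were found at 4.12% of arm and 6.95% of centre genes with a member. With all 5' ends, 13 arm genes had 3 or more members. Of these din-1, a corepressor that partners the nuclear receptor DAF-12, had the most, with 6 members on the right arm of chromosome II, between positions 11617746 and 11634412. Their signals were 111.0, 166.5, 147.9, 133.6, 41.7 and 150.1, in order of position, so 5 of the 6 were above the arm median and 1 was close to the lowest member. By annotation 4 of the 6 lie in introns, 1 in a coding exon and 1 outside protein-coding genes. M01H9.3 had 4 members, with signals of 183.8, 76.8, 89.6 and 63.9. All others had 3 each, and the following are those with the highest peak among these tied genes. nurf-1, a subunit of the nucleosome remodelling factor NURF, had signals of 326.9, 200.9 and 148.4, all in introns. scpl-3, a phosphatase-like gene, and ell-1, an elongation factor, had highest signals of 258.0 and 232.0; 2 of the ell-1 summits lie in 1 called region, the only such case among arm members.

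The height of arm members was close to that of centre members, and the difference did not pass the test. Signal, also called height here, is the value that the authors' lists give each peak. The sources do not state its measure or scale. Arm members ran from 41.5 to 862.3 with a median of 85.9 and quartiles of 59.1 and 134.0; centre members ran from 41.4 to 522.6 with a median of 89.3 and quartiles of 61.8 and 135.0. The ratio of geometric means was 0.979 (0.938 to 1.02, adjusted p = 0.337, n = 1385 arm and 1255 centre members). The same held in each replicate's own list, where a peak's signal was divided by the replicate's median over all matched optimal peaks, called relative signal here. In replicate 1 the median relative signal was 0.983 on the arms and 1.05 in the centres (ratio 0.970, 0.919 to 1.02, adjusted p = 0.329, n = 1376 and 1241), and in replicate 2 it was 1.02 on the arms and 1.07 in the centres (0.975, 0.934 to 1.02, adjusted p = 0.329, n = 1365 and 1238). The arms held 52.5% of all members, and 8 of the 10 highest, 14 of the 20 highest, 29 of the 50 highest and 64 of the 100 highest. Of the highest 10% of the 2640 members, 138 were on the arms, a share close to that among all members, and no test was made of these counts.

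The 2 replicates gave like heights for arm members. The optimal list is labelled as thresholded by IDR, the irreproducible discovery rate, which favours peaks that rank alike in both replicates. Agreement between replicates at these peaks is therefore partly set by the choice of list. Of 1385 arm members, 1376 had a summit within 200 bp in replicate 1, 1365 in replicate 2 and 1356 in both. Between replicates, the coefficient of variation of a peak had a median of 18.9% on the arms and 19.3% in the centres. The median absolute log2 ratio between replicates was 0.389 on the arms and 0.396 in the centres (difference -0.0198, -0.0559 to 0.0162, adjusted p = 0.329, n = 1356 and 1224). Replicates differed over 2-fold at 166 arm members (12.2%) and at 181 centre members (14.8%). Relative signal was higher in replicate 1 at 607 of the 1356 arm members found in both. When each replicate's regions were cut at 7847 by signal, 1140 arm members stayed in replicate 1 and 1270 in replicate 2.

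A group of 4 arm peaks stood well above the rest. The peak of cdc-48.1 (chrII:10563433-10563722), the p97-type ATPase that extracts ubiquitylated proteins, had a relative signal of 9.0 in replicate 1 and 10.6 in replicate 2, and its summit lies 168 bp upstream of the 5' end. The peak of pha-4 itself (chrV:20756544-20757042) had 10.4 and 9.32, with a summit 83 bp upstream of one of its annotated 5' ends, in an intron. The peak of rpl-3 (chrIII:3867404-3867741), a protein of the large ribosomal subunit, had 9.93 and 9.15, 279 bp upstream. The peak of Y39B6A.43 (chrV:18967705-18968008) had 10 and 8.53, 40 bp upstream. Each of the 4 exceeded the next arm peak, W08E12.7, in both replicates. W08E12.7, which encodes a protein with a domain of the peptidase M24 family, had 5.04 and 6.5. No centre member reached this level: the highest, rpl-35, had 6.98 and 5.71, and K12H4.5 had 7.13 and 5.62.

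The pha-4 gene had another member 573 bp farther upstream, with relative signals of 0.964 in replicate 1 and 0.798 in replicate 2. Each was below that replicate's median over matched optimal peaks. The strain carries an insertion that targets pha-4, so reads of an inserted copy with the same sequence cannot be told apart from those of the gene's own place.

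The other 15 of the 20 highest arm peaks lie at genes of varied roles. Several belong to mitochondria: sco-1, an assembly factor of cytochrome c oxidase (relative signal 5.82 in replicate 1 and 5.71 in replicate 2), cox-5A, a subunit of that oxidase (4.83 and 5.65), dld-1, dihydrolipoyl dehydrogenase (4.54 and 5.32), and mrpl-28, of the mitochondrial ribosome (3.25 and 4.44). Others are vamp-8, a vesicle SNARE (6.29 and 5.28), wwp-1, a ubiquitin ligase (6.14 and 3.65), cbp-1, the CBP/p300 acetyltransferase (5.15 and 3.33), tba-2, an alpha tubulin (4.02 and 3.98), and ints-4, of the Integrator complex (4.94 and 4.16). The remaining 6 are Y39B6A.5, eelo-2, C06B8.7, egg-5, nape-1 and nhr-56. Among the 20, the ratio between replicates was largest at wwp-1, followed by egg-5 with 6.10 in replicate 1 and 3.80 in replicate 2. No theme was tested for these genes. Of the 20, 12 have the summit within 300 bp upstream of the 5' end, 5 are on chromosome V, 6 hold a FoxA word and 3 a GA repeat.

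**Figure D2:**
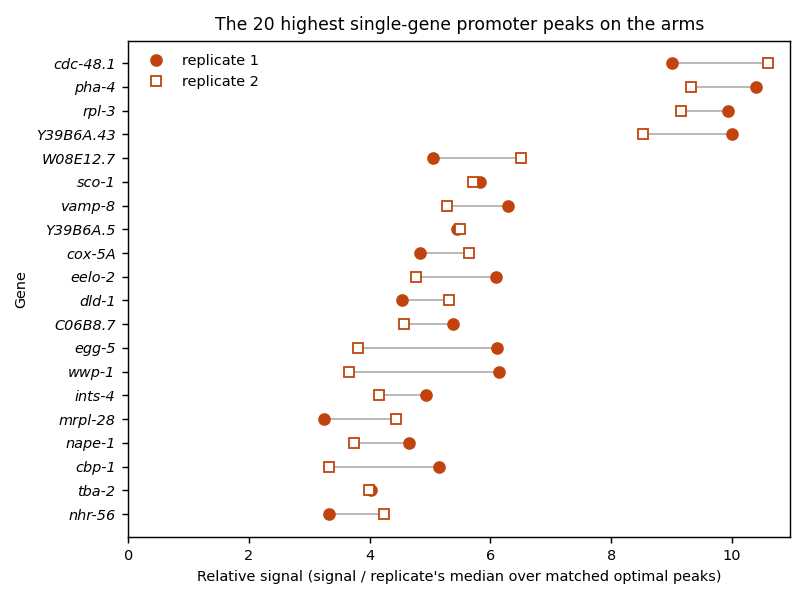
Relative signal of the 20 highest arm members in replicate 1 (filled circles) and replicate 2 (open squares), where 1 is the replicate's median over matched optimal peaks; lines join the 2 values of a gene, and genes run from the highest optimal signal at the top. The 4 highest genes lie at or above 8.53 in both replicates, and the remaining 16 between 3.25 and 6.5.

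Position relative to the gene was close between arms and centres under the main rule. The median summit lay 221 bp upstream of the nearest 5' end on the arms and 244 bp upstream in the centres. Summits within 200 bp of the 5' end on either side made up 47.4% on the arms and 44.0% in the centres (odds ratio 1.16, 0.987 to 1.35, adjusted p = 0.135, n = 2640). Summits lay downstream of the 5' end in 100 arm members (7.22%) and in 93 centre members (7.41%), and over 500 bp upstream in 341 (24.6%) and in 304 (24.2%). By annotation, 982 arm summits (70.9%) were outside protein-coding genes, 272 (19.6%) in introns, 118 (8.52%) in untranslated regions and 13 (0.939%) in coding exons; in the centres the counts were 843 (67.2%), 287 (22.9%), 106 (8.45%) and 19 (1.51%). An annotated tRNA 5' end lay within 200 bp of 16 arm summits and of 11 centre summits. The median gap to the next gene upstream was 1430 bp for arm genes with a member and 843 bp for those without, and in the centres 1253 bp and 656 bp. The rule itself bears on these gaps, because a promoter window that touches another gene's window gives no single-gene summit there.

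Widths carried little information. The width was exactly 340 bp in 904 arm members (65.3%) and in 799 centre members (63.7%). In the lowest 20% of arm members by signal, 99.3% had this width, against 1.81% in the highest 20%.

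The DNA at arm summits was richer in G and C than that at centre summits. A+T content within 50 bp of the summit averaged 58.2% on the arms and 59.8% in the centres, a difference of -1.53 percentage points (-2.20 to -0.855, adjusted p = 3.21e-05, n = 2640), and it was lower in 9 of 10 arms than in the chromosome's own centre. Arm promoters without a member averaged 65.7% in a window of the same length centred 221 bp upstream of the 5' end, and such centre promoters 66.4%. The arm-centre difference was larger at members than in these promoters (interaction -0.844 percentage points, adjusted p = 0.0337, n = 17544 windows). Summit windows sit on a chosen peak and promoter windows at a fixed place, so the members' and the promoters' levels are not matched for position. Promoters without a member still include those with a peak shared by several genes. A peak of either kind was found at 21.1% of arm and 28.3% of centre genes, against 11.8% and 16.4% with a member. Its bearing on the comparisons with promoters without a member, here and for the words below, was not tested. Soft-masked repeat sequence covered 24.5% of summit windows on the arms and 20% in the centres, while it covered 40.4% of memberless promoter windows on the arms and 31.7% in the centres.

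The FoxA words, the letters that forkhead proteins are known to favour, were found at 343 of 1385 arm summits (24.8%, 95% Wilson interval 22.6 to 27.1%) and at 347 of 1255 centre summits (27.6%, 25.2 to 30.2%). Among all 17242 autosomal promoter windows of the same length, 7.63% held one. The odds ratio of arms over centres was 0.857 (0.719 to 1.02, adjusted p = 0.144, n = 2640). It passed the threshold when each replicate's own list was used: 0.746 without replicate 2 (adjusted p = 0.00201) and 0.817 without replicate 1 (adjusted p = 0.0375), and also with 100 bp on each side of the summit (0.805, adjusted p = 0.0172, n = 2640). The arm-centre ratio in promoters without a member was 0.879, and its difference from that at members did not pass (adjusted p = 0.828, n = 17544 windows).

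The GA repeat was more frequent at arm summits. It was found at 366 arm summits (26.4%, 24.2 to 28.8%) and at 269 centre summits (21.4%, 19.3 to 23.8%), with an odds ratio of 1.32 (1.10 to 1.59, adjusted p = 0.00751, n = 2640), and it was higher than in the chromosome's own centre in 8 of 10 arms. Of all autosomal promoter windows 6.70% held it. In promoters without a member the shares were 5.68% on the arms and 6.45% in the centres, and the arm-centre odds ratio at members was 1.49 times that in these promoters (1.18 to 1.88, adjusted p = 0.00232, n = 17544 windows). The call was lost without chromosome V (odds ratio 1.22, adjusted p = 0.132, n = 2051), with the 500 bp window (1.26, adjusted p = 0.0528), in the upper 50% of the list by signal (1.35, adjusted p = 0.0544), and with the window's A+T content as a further covariate, an alternative chosen after seeing the data (1.23, adjusted p = 0.0730).

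The GATA word TGATAA, recognised by GATA factors such as those of the intestine, stood at 283 arm summits (20.4%) and 237 centre summits (18.9%; odds ratio 1.10, 0.913 to 1.34, adjusted p = 0.329, n = 2640). With arms as the outer 25% at each end the ratio was 1.33 (adjusted p = 0.0136, n = 2640), and with A+T content as a covariate it was 1.33 as well (adjusted p = 0.0141). All autosomal promoter windows held it at 11%. In promoters without a member the shares were 10.1% on the arms and 11.7% in the centres, and the arm-centre odds ratio at members was 1.30 times that in these promoters (1.05 to 1.62, adjusted p = 0.0324, n = 17544 windows). Runs of 8 A or 8 T were present in 7.58% of arm and 5.34% of centre summit windows (odds ratio 1.43, 1.04 to 1.98, adjusted p = 0.0644, n = 2640). In promoters without a member they were present in 15% on the arms and 9.23% in the centres, and in 12.9% of all autosomal promoter windows. No word contains another of those searched.

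**Figure D3:**
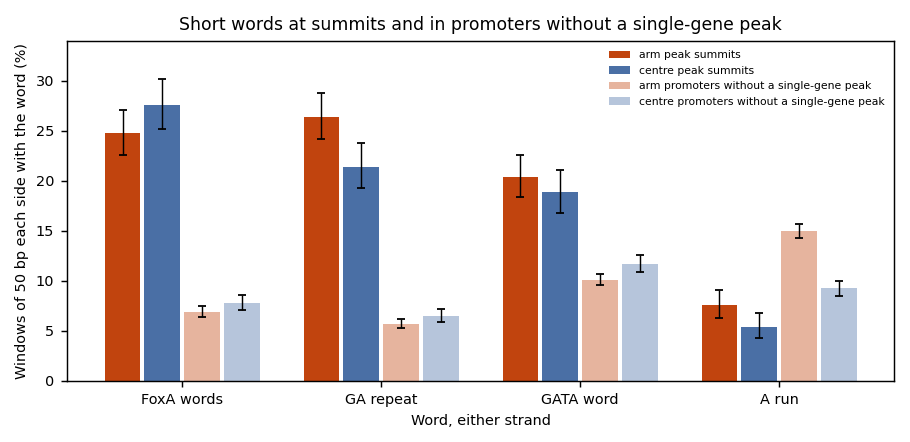
Share of windows of 50 bp on each side holding each word on either strand, in percent, at member summits and in promoters without a member, for arms (red) and centres (blue); bars are shares and lines are 95% Wilson intervals. FoxA and GA words reach 21.4% or more at members against 7.78% or less in promoters without a member, and the A run is lower at members on both kinds of segment.

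Within the arms, sequence at the summit moved with signal. Members with the GATA word had a median signal of 67.1 (n = 283), against 90.7 for those without (n = 1102), a ratio of 0.767 (0.720 to 0.816, adjusted p = 2.64e-16). In replicate 1 the median relative signal was 0.753 with the word and 1.07 without it, and in replicate 2 it was 0.814 with the word and 1.09 without it, so the level was lower with the word in both. With A+T content added to the fit the ratio was 0.871 (0.810 to 0.935, adjusted p = 2.94e-04, n = 1385). Without A+T content in the fit, the centres gave a ratio of 0.758 (adjusted p = 2.09e-18, n = 1255), and with it 0.846 (0.795 to 0.901, adjusted p = 1.72e-06). Over 5 equal groups of the arm members ranked by signal, the GATA word was present in 32.9, 27.1, 16.6, 16.2 and 9.39% from the lowest group to the highest, and A+T content averaged 62.0, 59.9, 57.6, 56.7 and 55.2%. FoxA words were found in 21.3% of the lowest group and 29.6% of the highest; members with one had a signal ratio of 1.08 (adjusted p = 0.0730, n = 1385), which became 1.15 (1.07 to 1.23, adjusted p = 2.22e-04) with A+T content in the fit. In the centres the FoxA ratio was 1.07 (adjusted p = 0.0730, n = 1255), and 1.15 (1.08 to 1.23, adjusted p = 4.75e-05) with A+T content in the fit. On the arms the GA repeat had a ratio of 1.03 (adjusted p = 0.369, n = 1385) and the A run 0.900 (adjusted p = 0.0847), and neither passed. These relations are across peaks of 1 experiment, and peaks of 1 list are not replicates.

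**Figure D4:**
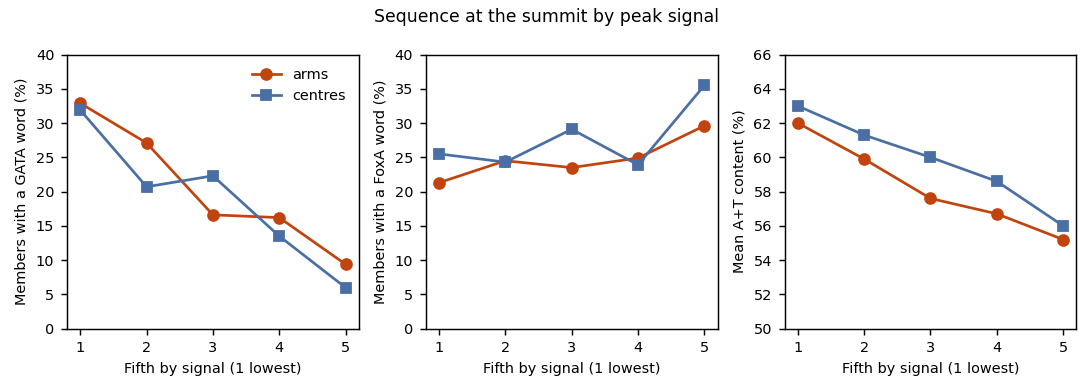
GATA words, FoxA words (each as percent of members) and mean A+T content (percent; this axis starts at 50) within 50 bp of the summit, in 5 equal groups of members ranked by signal (1 lowest), for arms (circles) and centres (squares). On the arms the GATA word was present in 32.9% of the lowest group and 9.39% of the highest.

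Gene lists differed widely in how many of their arm genes had a member, against the arm background of 11.8%. Of 968 arm chemoreceptor genes, receptors of sensory neurons, 5 had a member (0.517%), against 3 of 314 in the centres. C-type lectins, many of them secreted defence proteins, had 6 arm genes with one (2.99%), against 3 of 36 in the centres. MATH and BATH genes had 3 of 66 on the arms and 2 of 7 in the centres. None of 63 arm collagen genes had one, against 1 of 66 in the centres. The neuropeptide and insulin list had 1 of 62 on the arms, ins-35, against 2 of 44 in the centres. F-box genes, adaptors for ubiquitin ligases, had 23 of 297 (7.74%) on the arms and 1 of 8 in the centres. Their highest arm peaks were at fbxa-31 (signal 269.3), fbxc-29 (249.5) and fbxa-37 (214.0). The chemoreceptor, lectin, F-box, MATH and BATH, and collagen lists make up 14.9% of arm genes and 6.56% of centre genes, and 2.32% of them had a member on the arms and 2.32% in the centres. Without these 5 families, an alternative chosen after seeing the data, the shares were 13.5% on the arms and 17.4% in the centres, with an odds ratio of 0.738 (adjusted p = 1.71e-07, n = 15216 genes), which still passed the threshold.

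Several lists lay above the background. Nuclear hormone receptors, ligand-gated transcription factors that form a very large family in this species, had 47 of 178 arm genes with a member (26.4%) and 21 of 68 in the centres (30.9%). The highest on the arms were nhr-56 (signal 339.6), nhr-57 (316.0) and nhr-104 (233.1). Glutathione S-transferases, enzymes of detoxification, had 10 of 35 (28.6%), led by gst-7 (216.0) and gst-5 (188.5), and cytochrome P450 genes had 9 of 44 (20.5%), led by cyp-33C5 (135.6). The lipid metabolism list had 11 of 34 (32.4%) and included acs-2, an acyl-CoA synthetase (176.4), and elo-6, a fatty acid elongase (90.0). The zinc finger and bZIP list had 8 of 19 (42.1%), with zip-2 (318.8) and zip-1 (224.2) highest. In the centres, glutathione S-transferases had 3 of 6 and cytochrome P450 genes 4 of 23. There the lipid metabolism list had 10 of 29 and the zinc finger and bZIP list 5 of 18. The centre share of cytochrome P450 genes, 17.4%, was close to the centre background of 16.4%. The other centre shares given here were above that background, so for those lists a high share was not particular to the arms.

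The autophagy and lysosome list had 12 of 30 arm genes with a member (40%) and 14 of 20 in the centres (70%). It was set by gene name and also holds the ctl (catalase) genes, of which ctl-3 is among the 12. Its arm members include hlh-30, the TFEB-like regulator of autophagy genes (signal 205.6), atg-9 (186.9) and epg-6 (228.0), both of autophagosome formation. Vacuolar ATPase subunits, which acidify lysosomes, had 4 of 10 on the arms, led by vha-9 (149.7), and 3 of 7 in the centres. Cytosolic ribosomal protein genes had 9 of 46 (19.6%) on the arms and 13 of 33 (39.4%) in the centres, with a median signal of 241.8 on the arms and 232.2 in the centres, against 85.9 over all arm members and 89.3 over all centre members. Proteasome genes had 5 of 17 on the arms, led by rpn-11 (179.9), and 4 of 16 in the centres. Chaperones had 7 of 25 on the arms, led by dnj-9 (296.6) and hsp-1 (268.0), and 7 of 29 in the centres. Most lists are small, and the counts are given as descriptions without a test of each list.

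**Figure D5:**
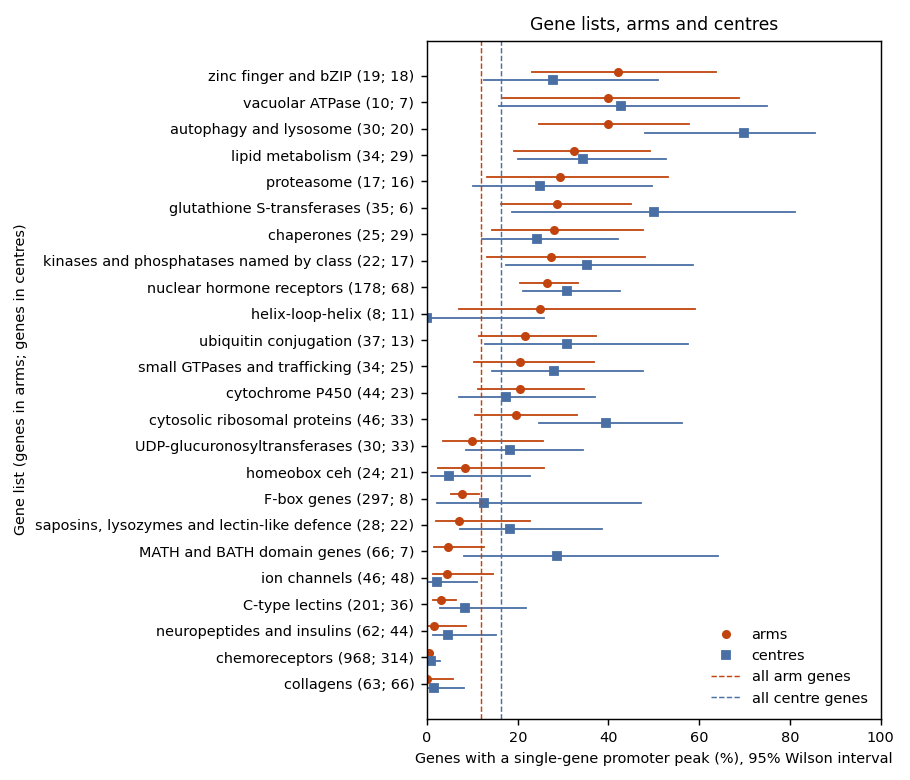
Percent of genes with a single-gene promoter peak in each gene list, for arms (circles) and centres (squares) with 95% Wilson intervals, and the number of list genes on each in brackets; dashed lines mark all arm genes (11.8%) and all centre genes (16.4%). Chemoreceptors and collagens lie near 0 on both, and nuclear hormone receptors lie above both lines.

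Some genes of the tissue marker lists lie on the arms, and a listed gene need not be expressed in that tissue only. The shares over all genes are 11.8% on the arms and 16.4% in the centres, and the marker counts are too small to be read against them. Of the pharyngeal muscle markers, tni-4, a troponin I, was the 1 of 2 arm genes with a member, and ceh-22 and myo-1 were 2 of 3 in the centres, where myo-5 had none. Of the intestinal markers, act-5 and spp-1 were 2 of 4 on the arms, where ges-1 and elt-7 had none, against 0 of 2 in the centres. Of the body wall muscle markers, lev-11 was the 1 of 3 on the arms, where hlh-1 and unc-54 had none. In the centres unc-15 was the 1 of 2, and myo-3 had none. Of the neuronal markers, snb-1 was the 1 of 4 on the arms, against 0 of 2 in the centres. The germline marker mex-3, the 1 on an arm, had none, against 0 of 3 in the centres, and no hypodermal marker lies on an arm, against 0 of 2 with a member in the centres.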

How the data were processed

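Per the labels, 2 biological replicates of 1 group were profiled by ChIP-seq. The deposited lists give each peak a signal, a value whose measure and scale the sources do not state. For read depth, aligner, caller and the value of the IDR threshold, nothing is stated either. Per the deposited manifests, each replicate's list of 30000 regions was made from its own alignment and a control file shared by both, and the optimal list from the pooled and replicate lists. Depth is therefore unknown, and Wilson intervals reflect only the number of peaks or genes counted.

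From the ce11 lists, the summit was the start plus the summit offset. Genes were those of Ensembl release 115 on WBcel235, the same assembly, with 585 missing symbols from RefSeq, and sequence was RefSeq's. A replicate's signal at a peak was that of its nearest summit within 200 bp, divided by its median over all matched optimal peaks. Arms and centres were compared with linear, logistic and Poisson fits across all members, genes or 100 kb bins, with chromosome as covariate, errors robust to 100 kb bins, two-sided Wald p and Benjamini-Hochberg adjustment over 15 tests. The signal-by-word and interaction tests were adjusted separately. These p-values describe spread along 1 genome in 1 experiment, not between animals. The fits were tried on simulated data with known effects, drawn without dependence between neighbouring peaks. The simulation checked the estimated effects, not the robust errors or the p-values.

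Named genes are those of the 20 highest arm members, the 5 highest centre members, the highest of each arm, up to 3 per gene list and 5 genes with most arm members, where ties at 3 members were broken by the highest peak. Printed windows are those of the 8 highest arm and 4 highest centre members that lie outside chromosome I and overlap no exon. Marker genes come from fixed lists. The members and lists were chosen with earlier results of these data known. Alternatives were other arm boundaries, promoter windows, 5' ends, signal thresholds, single-replicate lists, bin sizes, matching rules and sequence windows, and the omission of chromosome V. The 3 alternatives added after seeing the data left out 5 gene families, counted shared promoter peaks, or added A+T content. Fits used statsmodels 0.14.6, intervals SciPy 1.17.1, tables pandas 2.3.3 and NumPy 2.4.6, and plots Matplotlib 3.10.9, under Python 3.11.15.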

Additional observations from a re-analysis of the deposited data

How the results depend on the processing

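Over 14 settings and 15 arm-centre results, all but 25 of 144 recomputed values kept their direction and their side of the 0.05 threshold; peak density, the share of genes with a member, the distance to the nearest other peak and A+T content did so under every setting run for them. With arms as the outer 25% at each end, the odds ratio of the GATA word was 1.33 and that of the A run 1.49, both past the threshold, and the width ratio was 0.995. With the window of 500 bp before to 100 bp past the 5' end, proximal summits passed (1.28), while the GA repeat (1.26) and several peaks per gene (0.684) did not. With 2000 bp upstream the width ratio was 1.000 and the A run passed (1.60), as it did with 1 5' end per gene (1.60). In the upper 50% by signal, the ratios of signal and of relative signal in both replicates were 1.02, above 1, without passing, and the GA repeat (1.35) and several peaks per gene (0.620) no longer passed. From 1 replicate's own list at a time, the FoxA odds ratio ranged from 0.746 to 0.817 and the A run from 1.62 to 1.81, all past the threshold, and the width ratio from 0.994 to 1.01. Without chromosome V the GA repeat was 1.22 and did not pass. With 100 bp on each side of the summit the FoxA words (0.805) and the A run (1.67) passed. With A+T content as a covariate, chosen after seeing the data, the GA repeat was 1.23 and did not pass, and the GATA word (1.33) and the A run (1.63) did. Counting any promoter peak, also chosen after seeing the data, 21.1% of arm and 28.3% of centre genes had one (odds ratio 0.689). The causes of these changes were not tested. No paired analysis was possible because the 2 replicates belong to 1 group. Read depth was not available to weigh the peaks, and promoters that lie in windows of several genes are not described here.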

Other observations

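The word AAGTGTA, noticed in the printed windows after they had been chosen, is in 4 of the 12 windows shown. It was present in 2.17% of arm members and 1.59% of centre members, and in 1.58% of all autosomal promoter windows of the same length. Arm members with it had a median signal of 83.9, against 85.9 for those without. Among the highest peaks, where the word was noticed, it was in 3 of the 20 highest arm members. It was in 4 of the 100 highest arm members and in 4 of the 100 highest centre members. It was therefore not common among members at large, and no test was made of it.

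Small RNA genes also lie near some member summits. An annotated snoRNA 5' end lay within 200 bp of 11 arm and 15 centre summits, an snRNA 5' end of 2 arm and 10 centre summits, and a miRNA 5' end of 3 arm and 0 centre summits. Signal from such a gene and from the protein-coding promoter beside it cannot be told apart in these lists.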
